A study of Mus musculus with 4 samples.

Results

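In mouse T cells, 10 histone variant genes were examined: H2afz, H2afv, H2afx, H2afy, H2afj, H3f3a, H3f3b, H1f0, H1fx and Cenpa. They were taken by symbol as the replication-independent histone genes, and 10 of 10 were found among the 50600 genes listed in the files. Primary T cells from C57BL/6NJ, an inbred mouse strain, gave 4 biological replicates of 1 group; the labels give no treatment, and no age or sex. File names recorded in the headers carry the words Th0, activated and 48 h, where Th0 is commonly used for CD4 T cells stimulated with no polarising cytokine, and a linked protocol is for CD4+ T cell differentiation. The assay is labelled total RNA-seq, but its library protocol is named for polyA+ RNA. All 4 libraries carry the same donor identifier, so a p-value here reflects no more than the spread among these 4 samples, which may be technical.

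Most histone mRNA is made from clustered, intronless genes that are transcribed in S phase, when DNA is copied. These replication-dependent mRNAs end in a conserved stem-loop in place of a poly(A) tail, and the stem-loop binding protein Slbp carries them through processing and translation. Variant histones come from single genes outside the clusters, many with introns, whose mRNAs are mostly polyadenylated and, for many of them, not limited to S phase. Their proteins replace the canonical ones at chosen places, such as promoters for H2A.Z, transcribed genes for H3.3, sites of DNA breaks for phosphorylated H2AX and centromeres for CENP-A.

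The ends of the reference transcripts differed in part between these gene classes, and a few are given here to show the features and where they overlap. In GENCODE M21 (GRCm38, the same assembly as mm10), 9 of the 10 variant genes had a coding transcript with AATAAA or ATTAAA, the signals that direct polyadenylation, in its last 50 bases. H2afy was the exception. The same was true of 77.9% of 21901 protein-coding genes and of 17 of 65 replication-dependent histone genes with a coding transcript (26.2%). The stem-loop was taken as the 16-base sequence found in the last 100 bases of the largest number of replication-dependent genes (12 of 65), which was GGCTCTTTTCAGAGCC, chosen among overlapping frames found equally often as the frame whose ends pair. Both motifs were searched on the transcript strand only, the stem-loop with at most 2 mismatches anywhere in a coding transcript. It was found in 39 of 65 replication-dependent genes (60%), in 96 of all 21901 protein-coding genes (0.438%) and in 0 of the 10 variant genes. An absent match says only that these letters are not in the annotated transcript. For some replication-dependent genes that transcript is the coding sequence alone (Hist1h2ai, 393 bases, and Hist1h4k, 312 bases). Neither motif could be found past the stop codon of such genes, which count among those without a match. Each line below is a stretch of 30 bases, written 5′ to 3′, with the signal or the stem-loop in capitals.
H3f3b, signal: ataggccttacaAATAAActagtaagtttg
H2afz, signal: ctctgcttactaATTAAAcagtgcatctgt
H2afx, signal: tgggctaattttATTAAAggatcgtttggt
Cenpa, signal: aaaataaataaaAATAAAaataattcctta
Hist1h2bj, stem-loop: atccaaaGGCTCTTTTCAGAGCCacgcaca
Hist1h1c, stem-loop: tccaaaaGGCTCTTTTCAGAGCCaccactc
Hist1h1c, signal: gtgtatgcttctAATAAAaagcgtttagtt
Hist1h4i, signal: ggttctgtttacATTAAAagtattctatgc
The features did not divide the classes fully. Several replication-dependent genes had both, such as the linker histone gene Hist1h1c, with 840 bases between the stem-loop and the end. Others, such as Hist1h1b, had neither, and among the variant genes H2afy had neither.

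Libraries held 45110199 to 127755788 counts assigned to genes, a 2.83-fold range, so that a count of 0 (taking 3 counts as the limit) allowed 0.0235 to 0.0665 CPM (counts divided by the library total and scaled to the usual common total), for counting error only. No pair of libraries agreed within sampling noise (chi-square divided by its degrees of freedom, 7.78 to 24.2). All 12 T cell markers lay above 1 CPM, with a summed level of 4793 to 4911 CPM. Of 29 markers of B, myeloid, dendritic, natural killer, erythroid and stromal cells, 7 lay above 1 CPM, and the largest summed level of any of these lists in a library was 9.74 CPM. Lyz2, Itgax, Klre1, Hbb-bs, Alas2 and Col3a1, defining markers of these cells other than B cells, had no count. The 7 above were Zbtb46 (5.76 CPM), Cebpb (3.77), Pdgfrb (2.90), Cd68 (2.69), Adgre1 (2.60), Eomes (2.34) and the B cell marker Ebf1 (1.53). Of the CD8 T cell markers, Cd8b1 stood above the threshold at 9.62 CPM and Cd8a below it at 0.279 CPM. The part of other cells in the levels below was not tested. In bulk RNA, fewer cells of a type and less RNA per cell cannot be told apart.

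Of the 10 variant genes, 9 were expressed well above the threshold, and H1fx, a linker histone gene, stood at it. By limma's one-sided test of log2(CPM + 0.1) against 1 CPM, adjusted over all genes with a count, 9 of 10 members lay above, 0 below and 1 was undecided, against 47.4% above and 48.3% below among the 23365 genes tested. The median over the 10 members was 126 CPM, and over all genes tested 0.902 CPM. The 9 ranged from 34.0 CPM for H2afv to 586 CPM for H3f3b. Levels are compared between genes below in TPM, a relative abundance that divides counts by the summed exon length of each gene and scales every library to the same total.

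**Figure D1:**
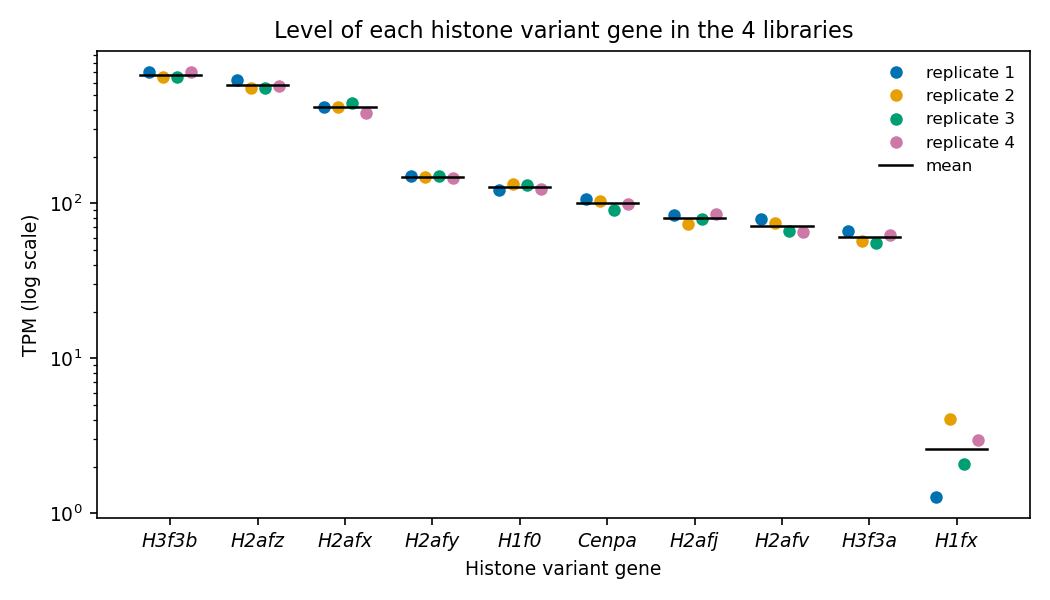
Level in TPM (log axis) of each histone variant gene in the 4 libraries, 1 point per library and a bar at the mean, in the order of the mean. H3f3b, H2afz and H2afx lay between 381 and 703 TPM in every library, 6 genes between 55.5 and 151 TPM, and H1fx between 1.28 and 4.05 TPM.

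The H3.3 protein is encoded by H3f3a and H3f3b, which make the same protein from different coding sequences, and H3f3b supplied most of the mRNA. H3f3b (ENSMUSG00000016559.14, chromosome 11, 116021912 to 116027962, minus strand, mm10) had 703, 648, 649 and 702 TPM in replicates 1 to 4. H3f3a (ENSMUSG00000060743.12, chromosome 1, 180800832 to 180813943, minus strand) had 66.1, 56.9, 55.5 and 62.7 TPM. The values of the pair did not overlap, and both genes were higher in replicates 1 and 4 than in replicates 2 and 3. H3f3b exceeded H3f3a by a log2 ratio of 3.49 ± 0.06 (SD, n = 4), or 11.2-fold, higher in 4 of 4 libraries (limma on log2(TPM + 0.1) of every gene against H3f3b, adjusted p = 4.11e-11 over 23364 genes), and 99.1% of those genes were called below H3f3b. In shares, H3f3b made up 91.8% ± 0.303 of H3.3 TPM and H3f3a the other 8.18%.

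Their coding sequences, of 411 bases each, differ at 95 positions, 81 of them in the last base of a codon, which bears on whether reads can be assigned to each gene. The first 90 bases of each, counted from the start codon, are printed with the differing bases in capitals.
H3f3a: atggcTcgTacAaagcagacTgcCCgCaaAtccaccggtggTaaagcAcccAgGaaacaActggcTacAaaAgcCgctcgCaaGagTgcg
H3f3b: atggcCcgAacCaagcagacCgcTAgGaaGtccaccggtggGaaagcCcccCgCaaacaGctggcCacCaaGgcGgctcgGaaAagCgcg
The 2 coding sequences shared no stretch of 50 bases. Against the transcripts of all other annotated genes, 27.1% of the 50-base stretches of H3f3a were also found elsewhere, H3f3c among the other genes, and 6.86% of those of H3f3b. The deposited counting command has no option to count reads that map to several places. Unshared length here means exon length reduced by the share of 50-base stretches found elsewhere, with all counts of the gene kept. With it, H3f3a stood at 82.7 TPM ± 6.81 and H3f3b at 725 ± 33.5.

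Cenpa, which encodes the H3 variant that marks centromeres, lay between these levels. Cenpa (ENSMUSG00000029177.9, chromosome 5, 30666777 to 30674830, plus strand) had 107, 103, 90.5 and 99.1 TPM in replicates 1 to 4, with replicate 3 lowest. It exceeded H3f3a by a log2 ratio of 0.73 ± 0.09 in 4 of 4 libraries (limma, adjusted p = 5.03e-07), and 89.6% of genes were called below Cenpa. That ratio was 2.42 with the longest coding transcript as gene length and 0.29 with unshared length. Its summed exon length of 5860 bases is far above the 1466 bases of its longest coding transcript in M21. With that shorter length for every gene, Cenpa stood at 290.1 TPM ± 19.6.

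Among H2A variants, H2afz led. H2afz and H2afv encode the closely related H2A.Z proteins, which are placed at promoters and enhancers by exchange complexes. H2afz (ENSMUSG00000037894.13, chromosome 3, 137864487 to 137866922, plus strand) had 622, 556, 551 and 572 TPM in replicates 1 to 4. H2afv (ENSMUSG00000041126.16, chromosome 11, 6427229 to 6444443, minus strand) had 79.3, 74.8, 65.8 and 65.5 TPM. Replicate 1 was highest for both genes, and the pair did not overlap. H2afz exceeded H2afv by a log2 ratio of 3.01 ± 0.10 (SD, n = 4), or 8.07-fold, in 4 of 4 libraries (limma, adjusted p = 1.84e-10), and 98.9% of 23364 genes were called below H2afz. H2afz made up 89.0% ± 0.706 of H2A.Z TPM.

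The H2A.Z coding sequences, of 387 bases each, differ at 81 positions, 70 of them in the last base of a codon. Their first 90 bases are printed in the same way, to show how far reads of the pair differ.
H2afz: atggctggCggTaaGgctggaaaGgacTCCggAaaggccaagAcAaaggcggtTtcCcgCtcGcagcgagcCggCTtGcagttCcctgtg
H2afv: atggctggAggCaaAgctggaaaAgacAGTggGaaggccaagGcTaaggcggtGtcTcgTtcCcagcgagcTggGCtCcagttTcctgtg
H2afv shared none of its 50-base stretches with another gene, whereas 35.4% of those of H2afz were found elsewhere, the highest share among the 10 members. A stretch of at least 50% of the H2afz transcript matched transcripts of Tmcc1 and Gm26623, at 99.9% identity in the closest case. Counts of these other genes came to 7.46% of those of H2afz. Whether reads moved between them was not tested.

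H2afx and H2afj encode H2A proteins close to the canonical one, and H2AX is the form phosphorylated around DNA breaks. H2afx (ENSMUSG00000049932.3, chromosome 9, 44334694 to 44336077, plus strand) had 421, 420.2, 443 and 381 TPM in replicates 1 to 4, lowest in replicate 4. H2afj (ENSMUSG00000060032.6, chromosome 6, 136808244 to 136810074, plus strand) had 83.8, 74.0, 79.5 and 85.05 TPM. The genes did not overlap, and H2afx exceeded H2afj by a log2 ratio of 2.37 ± 0.16 in 4 of 4 libraries (limma, adjusted p = 5.27e-09), with 98.2% of genes called below H2afx. H2afz exceeded H2afx by 0.47 ± 0.13, again in 4 of 4 libraries (limma, adjusted p = 6.78e-05). Of the 50-base stretches of H2afx and H2afj, 9.66% and 7.002% were shared with other genes, replication-dependent H2A genes among those of H2afx.

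The mRNA of macroH2A, an H2A with a large extra domain that is linked to silent chromatin, came almost wholly from H2afy. H2afy (ENSMUSG00000015937.14, chromosome 13, 56073619 to 56136361, minus strand) had 149, 148, 151 and 146 TPM in replicates 1 to 4, a spread of 1.24% of its mean in CPM, the smallest among the 10 members. Its paralog H2afy2, which is not among the 10, had 1.71, 2.27, 2.29 and 2.77 TPM. H2afy exceeded H2afy2 by a log2 ratio of 6.00 ± 0.29 in 4 of 4 libraries (limma, adjusted p = 9.61e-08), with 93.6% of genes called below H2afy, and made up 98.5% ± 0.301 of macroH2A TPM. H2afy2 passed the test of 1 CPM at 1.43 CPM ± 0.274 (limma, adjusted p = 0.0321), but not without replicate 3 (adjusted p = 0.069) or without replicate 4 (adjusted p = 0.148).

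Of the variant linker histones, which bind DNA between nucleosomes, H1f0 was expressed and H1fx was near the threshold. H1f0 encodes H1.0, a form best known from differentiated and resting cells. H1f0 (ENSMUSG00000096210.1, chromosome 15, 79028212 to 79030498, plus strand) had 121, 133, 130.3 and 124 TPM in replicates 1 to 4, or 84.8 CPM ± 3.41 (SD, n = 4). H1fx (ENSMUSG00000044927.6, chromosome 6, 87980421 to 87981637, minus strand) had 26, 65, 93 and 56 counts, which gave 1.28, 4.05, 2.08 and 2.95 TPM, with replicate 1 lowest. H1f0 exceeded H1fx by a log2 ratio of 5.68 ± 0.64 in 4 of 4 libraries (limma, adjusted p = 6.54e-07), with 92.2% of genes called below H1f0. H1fx averaged 0.919 CPM ± 0.424 and passed neither one-sided test of 1 CPM (adjusted p = 0.446 for the lower side). In TPM it lay above a threshold of 1 (adjusted p = 0.00535), as did 50.5% of all genes, and against 2 CPM it lay below (adjusted p = 0.00192), as did 52.9%. H1fx shared 14.04% of its 50-base stretches with Gm5577, and 24 of its 1217 exon bases overlapped Gm47286 on the same strand.

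By mean TPM the order was H3f3b, H2afz, H2afx, H2afy, H1f0, Cenpa, H2afj, H2afv, H3f3a and H1fx. Measured against the next higher gene, each gene was called lower by limma with adjusted p-values of 8.98e-09 to 0.0363, adjusted over all genes. Several steps were small. H3f3b exceeded H2afz by a log2 ratio of 0.23 ± 0.05, H2afy exceeded H1f0 by 0.22 ± 0.06, and both held in 4 of 4 libraries. H1f0 exceeded Cenpa by 0.35 ± 0.14 and Cenpa exceeded H2afj by 0.31 ± 0.13, whereas H2afx exceeded H2afy by 1.48 ± 0.07, all in 4 of 4 libraries. H2afj exceeded H2afv by 0.18 ± 0.18 in 3 of 4 libraries (adjusted p = 0.0363; 87.2% of genes were called below H2afj), and without replicate 3 or replicate 4 the adjusted p was 0.126 and 0.143. H2afv exceeded H3f3a by 0.24 ± 0.14 (adjusted p = 0.00773; 85.5% called below H2afv), and without replicate 2 the adjusted p was 0.0787. H3f3a exceeded H1fx by 4.60 ± 0.75 (83.3% called below H3f3a). The steps between H2afj, H2afv and H3f3a thus did not hold in every leave-one-out fit.

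The order also depended on what was taken as gene length. With the longest coding transcript of each gene in M21, H2afz led at 695 TPM ± 37.2 over H3f3b at 581 ± 25.6, and H2afy stood at 359 ± 5.6 over H2afx at 303 ± 18.9. Cenpa then lay above H1f0, at 290.1 TPM against 103 TPM. With unshared length, which scales the value as if no count came from shared sequence, H2afz stood at 891 TPM ± 50.4. The log2 ratios within the H3.3, H2A.Z, macroH2A and variant linker pairs kept their direction under each of these lengths, though H2afz over H2afv became 3.74 with the longest transcript and 3.64 with unshared length, and H2afy over H2afy2 became 7.71 with the longest transcript. H2afz over H2afx became 1.199 with the longest transcript.

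**Figure D2:**
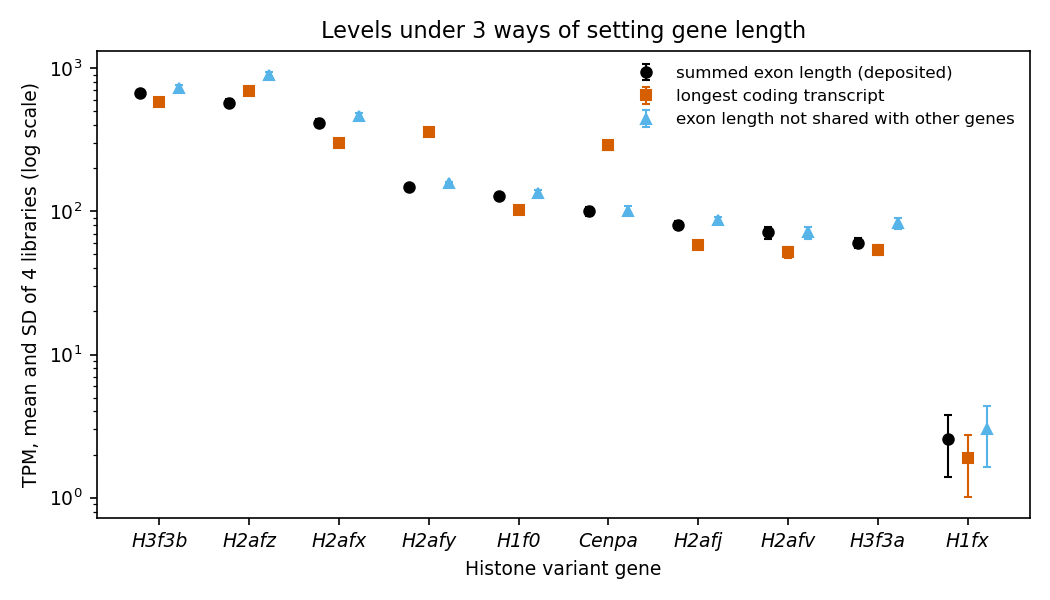
Mean TPM (log axis) with SD over the 4 libraries for each histone variant gene under 3 definitions of gene length. The longest-transcript length was set for every gene, the unshared length for the 10 members only. H2afy moved from 149 to 359 TPM and Cenpa from 99.8 to 290.1 TPM with the longest coding transcript, while H3f3a stayed between 54.1 and 82.7 TPM.

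The spread between replicates was near that of other genes for most members. It was 1.24% to 10.2% of the mean for the 9 expressed genes and 46.2% for H1fx, against a median of 6.21% over the 13279 genes with enough counts, and 6 of 10 members lay above that median. In edgeR's goodness-of-fit test, with trended dispersions, 0 of 10 members varied between replicates beyond genes of like abundance, against 0.422% of 13279 genes. At an unadjusted p below 0.05 there were 3 (H2afv, H3f3a and H1fx), with the smallest p at 0.03, against 5.8% of the 13279 genes. H1fx had 26 to 93 counts in libraries of unequal depth, and ranged from 0.457 CPM in replicate 1 to 1.44 CPM in replicate 2. The part of low counts in its spread was not tested.

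Replication-dependent histone genes stood below the variant genes in the same libraries, whose protocol is named for polyA+ RNA. The levels and shares below describe the RNA that was counted, and the part of poly(A) capture in them was not tested. The replication-dependent genes were taken by name alone, as every symbol starting with Hist1h, Hist2h, Hist3h or Hist4h. Of these, 3 have no coding transcript in M21, Hist3h2bb-ps, named as a pseudogene, among them. Of 68 such genes, 3 lay above 1 CPM, 46 below, 8 were undecided and 11 had no count, against the 47.4% of all genes above. That count turned on the unit, since these genes are short, with a median exon length of 478.5 bases. Against 1 TPM in place of 1 CPM, 25 lay above, 12 below and 20 were undecided (limma), where 50.5% of all 23365 genes lay above. Their median was 0.196 CPM, and the 68 genes together held 31.8 to 35.8 CPM, while the 10 variant genes held 1678 to 1823 CPM. In TPM the variant genes made up 92.6% ± 0.494 (SD, n = 4) of all histone genes. Within classes the share was 97.7% ± 0.368 for H2A, 97.0% ± 0.55 for H3 and 86.4% ± 0.442 for H1. More than 50% of the 50-base stretches were shared with another gene in 36 of the 68 replication-dependent genes, with a median of 55.98%, and the part of reads that map to several copies in their low levels was not tested. With the 32 other genes alone, the variant genes made up 95.02% of the total. Leaving genes out of the total could not lower this share, so the value says nothing about reads that map to several copies.

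**Figure D3:**
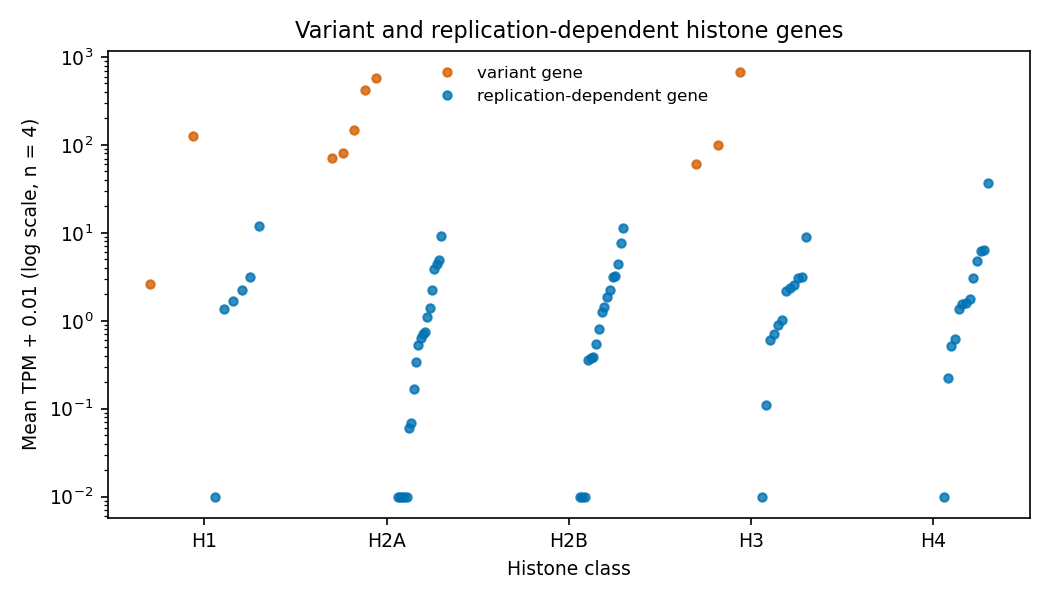
Mean TPM + 0.01 (log axis, n = 4) of each variant gene and each replication-dependent gene by histone class. Every variant gene but H1fx lay at 60.3 TPM or more, and the highest replication-dependent gene, Hist1h4i, at 36.8 TPM; H2B and H4 hold no variant gene of the list.

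The 3 replication-dependent genes above 1 CPM were Hist1h4i, Hist1h1c and Hist1h2bj, which encode an H4, a linker H1 and an H2B. Hist1h4i had 41.6, 28.7, 37.6 and 39.3 TPM in replicates 1 to 4, lowest in replicate 2. Hist1h1c had 10.6, 14.6, 12.2 and 10.99 TPM, highest in replicate 2. Hist1h2bj had 7.89, 14.9, 7.81 and 14.8 TPM, with replicates 2 and 4 well above the others. Its call did not hold without replicate 2 (limma, adjusted p = 0.126) or without replicate 4 (0.186). Hist1h4i and Hist1h1c are among the 17 genes with a polyadenylation signal at the annotated end, as printed above, and Hist1h2bj is not. The 17 genes with a signal had a median of 0.611 TPM and the 48 without one 1.405 TPM. Of these, 2 and 1 lay above 1 CPM, against 47.4% of all genes tested. Against 1 TPM the counts were 5 of 17 with a signal (29.4%) and 20 of 48 without (41.7%), where 50.5% of all genes lay above. The order of the 2 groups thus turned on the unit. Median exon length was 1560 bases with a signal and 463 without, and median shared sequence 28.9% and 64.2%. The signal was read at M21 transcript ends, whereas the counted M13 exons can be shorter (Hist1h2ae, 460 bases against 704). Some genes without a signal have an annotated transcript of coding sequence alone. The part of length, of shared sequence and of annotation in these counts was not tested.

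Chaperones and exchange factors that handle the variants were expressed throughout. All 7 genes of H3.3 deposition lay above 1 CPM, with a median of 76.5 CPM. Among all 23365 genes tested, 47.4% lay above, with a median of 0.902 CPM. Daxx, which with Atrx places H3.3 at repeats, and Ubn1 and Cabin1, of the Hira complex, stood at 77.2 TPM ± 2.57, 76.4 ± 2.61 and 58.5 ± 3.14. The chaperone gene Asf1a stood at 50.9 TPM ± 2.22. All 9 genes of replication-coupled assembly also lay above, with a median of 204 CPM, led by Chaf1a, a subunit gene of chromatin assembly factor 1, at 211 TPM ± 11.1. The histone-binding gene Rbbp4 stood at 167 TPM ± 2.1, the helicase gene Mcm2 at 157 ± 2.61 and the importin gene Ipo4 at 141 ± 8.6.

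For H2A variants, all 11 genes of H2A.Z exchange and 7 of 7 genes of H2A-H2B chaperones lay above 1 CPM, with medians of 48.1 and 567 CPM. The share above was 47.4% over all genes tested. Anp32e, which removes H2A.Z from nucleosomes, stood at 321 TPM ± 8.07, close to the helicase gene Ruvbl2 at 319 ± 12.1, with Ruvbl1 at 186 ± 7.92 and Yeats4 at 117 ± 4.88. The nucleolar chaperone genes Npm1 and Ncl stood at 2451 TPM ± 47.3 and 913 ± 28.4. Ssrp1, a subunit gene of the FACT chaperone, reached 670 TPM ± 15.9 and Set 478 ± 14.8. Of 10 genes of H2AX signalling, 9 lay above, with a median of 76.9 CPM, led by Baz1b, whose product phosphorylates H2AX on a tyrosine, at 123 TPM ± 5.13. The phosphatase gene Eya1 had 2 counts in all, whereas its paralog Eya3 stood at 70.8 TPM ± 5.73. Mdc1 and Trp53bp1, whose products gather at phosphorylated H2AX, stood at 56.03 TPM ± 2.88 and 36.5 ± 1.8.

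All 7 genes of CENP-A deposition and all 12 of histone mRNA processing lay above 1 CPM, with medians of 43.1 and 117 CPM. Again, 47.4% of all genes tested lay above. Rbbp7, a histone-binding gene, stood at 546 TPM ± 11.2. Hjurp, the dedicated CENP-A chaperone, stood at 199.7 TPM ± 5.27, and Oip5 and Mis18a, of the Mis18 complex that readies centromeres for CENP-A, at 50.8 ± 3.42 and 41.4 ± 1.17. Cpsf3, the nuclease gene that cuts histone and other pre-mRNAs, stood at 214 TPM ± 5.77 and its scaffold gene Sympk at 149 ± 4.27, with Ccne1 at 144 ± 6.51 and Cpsf2 at 106 ± 1.21. Of 11 other variant genes found, H2afy2 lay above, H3f3c and H1foo below, and 8, among them the testis genes H1fnt and Hils1, had no count.

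**Figure D4:**
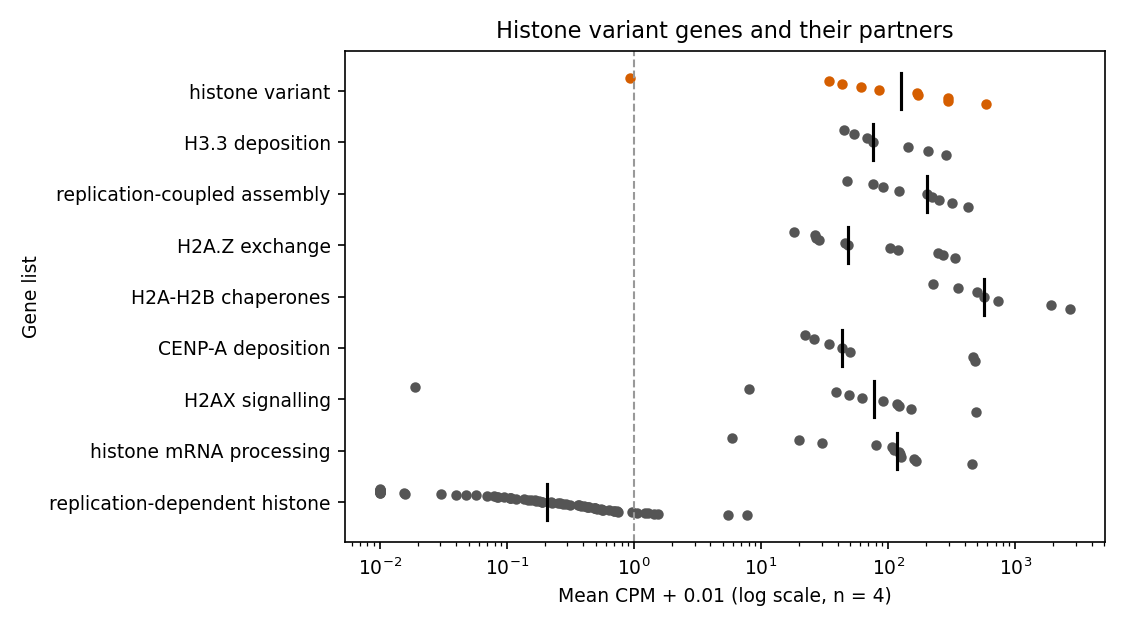
Mean CPM + 0.01 (log axis, n = 4) of each gene in 9 lists, with a bar at the list median and a dashed line at 1 CPM. In 6 of the 7 partner lists every gene lay above 1 CPM, against 47.4% of all genes tested. Eya1 lay below in the H2AX list, while most replication-dependent genes lay to the left of the line.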

How the data were processed

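The authors deposited, per gene, raw counts of read pairs, which per the file headers came from featureCounts 1.4.6-p4 over GENCODE M13 exons, with both ends mapped and strand option 2, on STAR alignments to mm10 (per the labels). The command names no option that counts reads mapping to several places or genes. For the STAR version and trimming, the sources used here give nothing. Replicate numbers came from the labels and equalled those in the headers in 4 of 4 files.

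Symbols from GENCODE M21 matched 50376 of 50600 genes; the 224 others held at most 0.0092% of a library. CPM, TPM and the tests were computed here: limma 3.58.1 (pseudocount 0.1, trend, Benjamini-Hochberg, adjusted p below 0.05) for levels and, as a difference within each library, for every gene against each reference gene; edgeR 4.0.16 for variability (TMM factors 0.996 to 1.00, filterByExpr). Transcripts were searched in python 3.11.15 and with blastn 2.17.0+ (at least 90% identity over 50% of the transcript). Alternatives used DESeq2 1.42.0 size factors and others given in the closing section. Each test was tried on simulated counts.

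Members and lists were chosen with earlier results of these data known. Named genes are all members, the 4 highest in TPM of each list, genes not above 1 CPM and genes closest in level to a member, given for H3f3b, H2afz, H2afx and H1fx; the others are not reported here. H2A.Z and other group sums have no test. No likeness of change was measured over 4 libraries.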

Additional observations from a re-analysis of the deposited data

Results flagged for a closer look

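Among 65 values checked over the 4 libraries, 3 had 1 library far from the other 3; chance gives about 1 in 20. The share of variant genes in H3 TPM was 97.8% in replicate 1, against 96.6% to 96.8% in the others. Daxx stood at 81.1 TPM in replicate 3, against 75.6 to 76.2 in the others. Ccne1, a cyclin gene, stood at 153 TPM in replicate 4, against 139 to 141 in the others.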

How the results depend on the processing

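The count of 9 members above 1 CPM held under every alternative run except TPM in place of CPM, which gave 10. Against a threshold of 1 TPM, H1fx lay 1.18 above on the log2 scale. The 7 fixed pairs kept direction and call under every alternative run, though in CPM the log2 ratio became 1.47 for Cenpa over H3f3a, 7.61 for H2afy over H2afy2 and 6.48 for H1f0 over H1fx. Other neighbours reversed: H3f3b over H2afz was -0.26 with the longest coding transcript and -0.30 with unshared length; H2afx over H2afy -0.81 in CPM and -0.25 with the longest transcript; H1f0 over Cenpa -1.005 and -1.49; H2afv over H3f3a -0.86, -0.061 and, with unshared length, -0.21. A common dispersion called 1 member variable (H1fx), and 873 of 13279 genes against 56. Replication-dependent genes above the threshold numbered 5 with edgeR's quasi-likelihood test and 25 in TPM, and 2 to 3 without 1 replicate; other variant genes numbered 0 against 2 CPM, and 0 to 1 without 1 replicate. In CPM, the shares were 90.5% (H3f3b), 89.8% (H2afz), 99.5% (H2afy), 98.9% (H1f0), 98.1% (all histone genes), 99.5% (H2A), 99.5% (H3) and 92.2% (H1). With the longest transcript they were 91.5% (H3f3b), 93.1% (H2afz), 99.5% (H2afy), 95.6% (all histone genes), 98.7% (H2A), 98.3% (H3) and 89.8% (H1), and that of H1f0 moved by less than its SD. Counts came from M13 exons. For some replication-dependent genes the M21 transcript is far longer (Hist1h1d, 7425 bases against 744), which lowers their TPM in this setting. The part of that mismatch in the shares against replication-dependent genes was not tested. With replication-dependent genes under 50% shared sequence the shares were 95.02% (all), 99.2% (H2A) and 98.4% (H3). Leaving genes out of the total in this way could not lower a share. Both of the length settings and the shared-sequence setting were chosen after seeing the data; apart from what gene length sets, the cause was not tested. For 1 pair of genes, the smallest two-sided p of an exact sign-flip test over 4 libraries is 0.125. No paired analysis was possible because the labels give 1 group.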

Other observations

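By class, the replication-dependent genes had low summed TPM in these libraries, whose protocol is named for polyA+ RNA, and H4 had the highest sum. The part of poly(A) capture in these sums was not tested. The 13 H4 genes summed to 64.8 TPM ± 9.09 (SD, n = 4), 17 H2B genes to 38.9 ± 7.62, 20 H2A genes to 30.1 ± 4.72, 12 H3 genes to 25.6 ± 4.21 and 6 H1 genes to 20.5 ± 1.39. Hist1h4i alone, at 36.8 TPM, made up most of the H4 sum, and Hist1h1c, at 12.1 TPM, most of the H1 sum. The order below H4 turned on the unit. In total counts H4 had 3229, H1 2069, H2B 1948, H2A 1208 and H3 1109. The part of gene length and of shared sequence in either order was not tested.

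Closest in level to H3f3b over the 4 libraries, by root mean square difference of log2 TPM, were the ribosomal protein gene Rpl10a (0.03) and the cochaperone gene Stip1 (0.04). Closest to H2afz were Ranbp1 (0.05), a regulator gene of nuclear transport, and Ppia (0.05). H2afx lay closest to the replicative helicase gene Mcm6 (0.061) and to Gdi2 (0.067). H1fx had no gene nearer than 0.30 (Adcy9 and Gm10521).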
